A study of Drosophila melanogaster with 3 samples.

Results

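Single-gene promoter peaks of the protein CG30403 whose summit lies upstream of or at the transcription start site (TSS) are described here. A peak was counted when TSSs of exactly 1 protein-coding gene (Ensembl release 115) lay within 500 bp of its summit and the summit lay upstream of, or at, the nearest of them by the strand of the gene. The rule kept 1844 of the 7827 reproducible ("optimal") peaks on build dm6, 23.6%. They belonged to 1587 of the 13945 annotated protein-coding genes, so that 11.4% of all protein-coding genes had such a peak. The other optimal peaks were 278 single-gene promoter peaks downstream of the TSS, 1324 peaks at the TSSs of a divergent pair of genes, 155 peaks near several genes otherwise arranged, and 4226 peaks over 500 bp from a protein-coding TSS.

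The samples were whole Drosophila melanogaster embryos, collected over 0 to 24 hours with both sexes pooled, of a transgenic line that stably expresses CG30403 fused at its C terminus to GFP. Chromatin was immunoprecipitated through the tag and sequenced (ChIP-seq) in 3 biological replicates, which form a single group, and the shared control was not analysed here. All cell types of the embryo and all stages of that day were mixed in each sample, and the tagged protein may not behave as the untagged one does. The lists do not give read numbers, so the depth is unknown. The signal value of a peak is the authors' own, has no stated scale and served only to rank peaks within a list. Replicates were compared through the 7827 strongest regions of each list.

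A promoter is the stretch of DNA at the start of a gene on which RNA polymerase II assembles. In the fly, promoters that start from a fixed position tend to carry a TATA box or an initiator, and belong to genes used in particular tissues or stages. Genes that most cells use more often carry other sequences just upstream of the TSS. One of these is the DNA replication-related element (DRE, TATCGATA), which is bound by the factor DREF and, through its CGATA part, by the boundary protein BEAF-32. Others are Motif 1 (GGTCACACT), the site of M1BP, and Motif 7, searched here as the short pattern CANCNCT, where N is any base. CG30403 itself is uncharacterised.

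The strongest peaks shown here lay in A+T-rich DNA without the DRE. Their sequences are shown for the strongest peak on each of 5 of the 6 chromosome arms whose summit lies outside annotated exons, up to 60 bp either side of the summit, without exons, and written 5′ to 3′ on the strand of the gene. No sequence is shown from the other arm, which holds 9 of the 25 strongest peaks. Capitals mark runs of at least 6 bases that are A or T. For comparison, DNA within 50 bp of the summit averaged 65.1% A+T over all single-gene upstream peaks of the optimal list. The DRE was present there in 3.96% of them, so neither trait is particular to the strongest peaks.
CG14100: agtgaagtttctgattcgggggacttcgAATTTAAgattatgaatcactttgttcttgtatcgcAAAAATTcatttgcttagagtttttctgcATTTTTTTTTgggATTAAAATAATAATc
Ugalt: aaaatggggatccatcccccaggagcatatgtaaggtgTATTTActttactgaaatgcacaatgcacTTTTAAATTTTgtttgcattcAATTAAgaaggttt
CG31145: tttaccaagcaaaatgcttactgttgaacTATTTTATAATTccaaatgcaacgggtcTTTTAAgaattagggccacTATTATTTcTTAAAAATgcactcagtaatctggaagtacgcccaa
E23: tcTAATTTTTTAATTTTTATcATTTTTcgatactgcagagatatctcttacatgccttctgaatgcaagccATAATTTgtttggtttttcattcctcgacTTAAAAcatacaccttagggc
Sox102F: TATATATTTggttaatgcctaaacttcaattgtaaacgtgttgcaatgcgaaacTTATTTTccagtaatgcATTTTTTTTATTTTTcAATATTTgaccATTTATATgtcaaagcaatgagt

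The CG14100 stretch (chr3L:19590561-19590681, minus strand) runs from 157 to 37 bp upstream of the TSS and is 70.2% A+T. The stretch at Ugalt, which encodes a UDP-galactose transporter (chrX:2703853-2703954, minus strand), ends 1 bp before the TSS and is 65.7% A+T. The CG31145 stretch (chr3R:23669784-23669904, minus strand) is 66.1% A+T and lies 245 to 125 bp upstream. E23 encodes an ABC transporter induced by ecdysone, and its stretch (chr2L:3354999-3355119, minus strand) is 67.8% A+T and lies 290 to 170 bp upstream. Sox102F encodes a Sox transcription factor, and its stretch (chr4:807481-807601, minus strand) is 73.6% A+T and lies 254 to 134 bp upstream. All coordinates are 1-based, and the sequences are those of the Release 6 reference assembly.

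A smaller set of mostly weaker peaks held the DRE, 62 of 73 of them with the summit less than 100 bp from the TSS. It is shown for the 6 strongest peaks with a DRE on these arms, 1 for each gene, whose DRE nearest the summit lies, with 16 bases on either side, outside annotated exons, with TATCGATA in capitals. The summits of kibra and Rpn11 lie farther out, at 127 and 378 bp.
eEF1gamma: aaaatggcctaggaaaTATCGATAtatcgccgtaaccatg
CG7006: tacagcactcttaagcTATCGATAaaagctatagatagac
kibra: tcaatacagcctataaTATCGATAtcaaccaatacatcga
RpS10b: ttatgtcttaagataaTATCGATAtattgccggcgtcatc
Rnp4F: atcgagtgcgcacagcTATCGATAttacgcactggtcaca
Rpn11: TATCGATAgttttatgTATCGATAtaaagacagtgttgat

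The eEF1gamma stretch, at a gene for a translation elongation factor subunit (chr3R:29220115-29220154, plus strand), lies 57 to 18 bp upstream of the TSS, and that of CG7006 (chr3R:24850569-24850608, plus strand) 58 to 19 bp upstream. At kibra, a gene of the Hippo growth control pathway, it lies 104 to 65 bp upstream (chr3R:14724326-14724365, minus strand). At RpS10b, a gene of the small ribosomal subunit, it lies 93 to 54 bp upstream (chrX:19597938-19597977, plus strand). At Rnp4F, which encodes an RNA-binding protein, it lies 69 to 30 bp upstream (chrX:5322726-5322765, minus strand). Rpn11, a proteasome subunit that removes ubiquitin, has 2 copies of the DRE farther out, within a stretch from 413 to 374 bp upstream (chr2L:5060164-5060203, minus strand).

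The peaks with a DRE ranked behind 4 of the 5 in the first set, and the Sox102F peak lay among them. The eEF1gamma peak ranked 824, 664 and 630 in replicates 1, 2 and 3, and the RpS10b peak 2118, 1936 and 1936. CG7006 ranked 3094, 1973 and 1023, kibra 3485, 2057 and 1602, and Rnp4F 3403, 1594 and 2568. In the first set, Ugalt ranked 6, 5 and 5, CG31145 11, 17 and 18, and E23 26, 54 and 67, while Sox102F ranked 705, 914 and 1041. The replicate rank of a peak is that of the strongest region that overlaps it in the list of that replicate. The peak of Rpn11 shown here, which ranked 2310 in the optimal list, and a stronger one of the same gene were overlapped by the same replicate regions, which ranked 603, 1241 and 1480.

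The 25 genes with the strongest single-gene upstream peaks ranked high in every replicate. They were chosen by signal in the optimal list, which was derived from these same replicates. High replicate ranks follow in part from that choice and are no separate test of it. Their signal values ran from 1953 to 5654, and the weakest rank that any of the 25 took in any replicate was 156, that of MFS10 in replicate 1. Their summits lay 42 to 480 bp upstream of the TSS with a median of 160 bp. None of the 25 held TATCGATA within 50 bp of the summit. The share among all single-gene upstream peaks was 3.96%, so few would be found in a group of 25 at that share. The group mixed genes of very different roles, and 12 of the 25 summits lay outside all gene bodies.

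CG14100 had the strongest peak (chr3L:19590351-19590868, signal 5654), with its summit 97 bp upstream of the TSS, and ranked 3, 2 and 3 in replicates 1, 2 and 3. Among genes of transport and metabolism, Ugalt had its summit 42 bp from the TSS, the shortest distance of the 25. aay, the phosphoserine phosphatase gene astray, ranked 62, 82 and 66, and MFS10, a member of the major facilitator family of transporters, ranked 156, 77 and 58. PNPase, which encodes a polynucleotide phosphorylase, ranked 29, 15 and 13, and mRpL41, a gene of the mitochondrial ribosome, ranked 14, 6 and 9. Replicate 1 gave the weakest rank of the 3 at MFS10, PNPase and mRpL41.

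Regulators formed another part of the 25. Sox14, a transcription factor gene induced by ecdysone, ranked 44, 41 and 28 in replicates 1, 2 and 3. Atf3, which encodes a bZIP transcription factor, ranked 40, 38 and 43, and chn, which encodes the zinc finger protein Charlatan, ranked 27, 93 and 101. ph-p, a gene of Polycomb repressive complex 1, ranked 66, 33 and 33, and its summit lay farthest from the TSS of the 25, at 480 bp. gish, which encodes a casein kinase 1, ranked 23, 36 and 42. px, the wing vein gene plexus, ranked 5, 10 and 7. At chn, replicate 1 stood apart from the others with a stronger rank, while at Atf3 the 3 replicates were within a few ranks of each other.

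Of the remaining genes, eIF6, whose product keeps the large ribosomal subunit from joining the small one, ranked 81, 42 and 37, and larp, an RNA-binding protein gene, 25, 34 and 17. Fkbp14, a prolyl isomerase gene, ranked 20, 25 and 22, and Rtnl1, which encodes the endoplasmic reticulum protein reticulon, 78, 59 and 63. CG31145 and E23 are described above. The others were Tina-1, CG18549, CG1888, CG13921, CG11857, Drat and brwl, with ranks between 18 and 79 in all 3 replicates. Drat ranked 21 in replicate 1, against 79 and 71 in replicates 2 and 3.

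**Figure D1:**
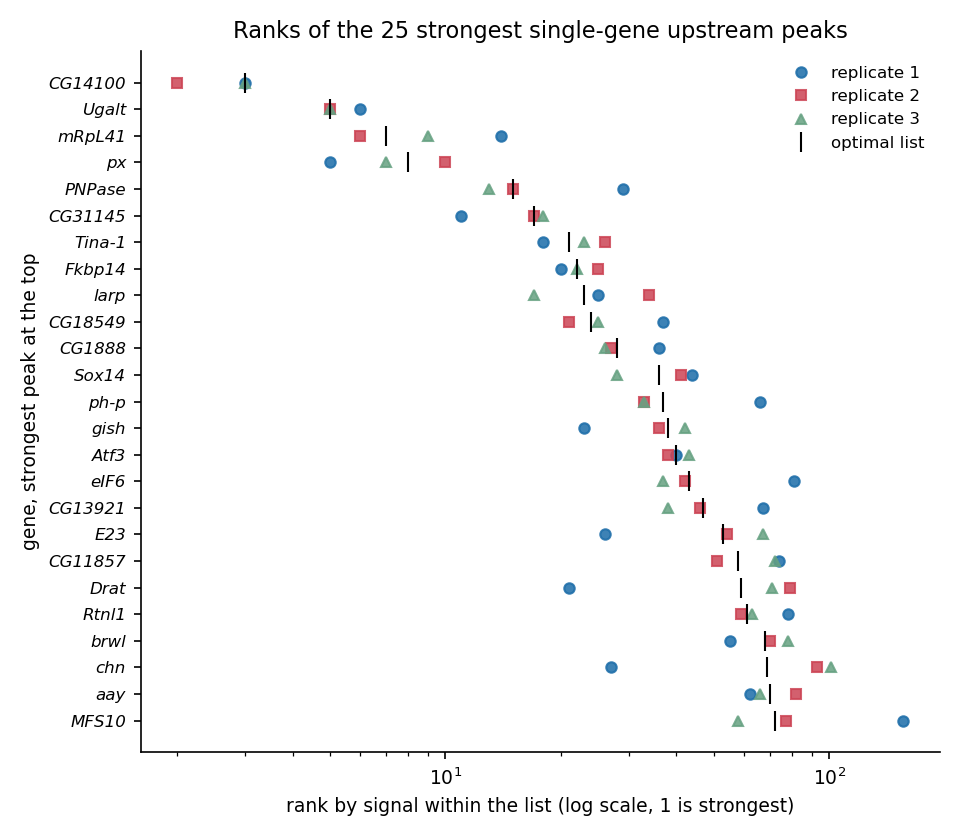
Rank by signal value within each list (horizontal, log scale) for the 25 genes with the strongest single-gene upstream peaks (vertical), with 1 symbol per replicate and a bar for the optimal list. CG14100 sits at ranks 2 and 3 in the replicates, and the weakest rank is 156, for MFS10 in replicate 1. The 25 were chosen from the optimal list, which was derived from these replicates.

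The same rule gave much the same number of peaks in each replicate. Replicates 1, 2 and 3 held 1777, 1901 and 1870 single-gene upstream peaks among their 7827 strongest regions (1849 ± 64.5, SD, n = 3). Of all single-gene promoter peaks, 83.7%, 88.6% and 85.3% in replicates 1, 2 and 3 lay upstream of or at the TSS, and 86.9% in the optimal list. A region of the top list overlapped 84.1% of the 1844 peaks in replicate 1, 94.6% in replicate 2 and 93.4% in replicate 3. Every replicate overlapped 1416 of them (76.8%), against 74.0% of all optimal peaks, so the share was near the background. The optimal list was selected for reproducibility among these replicates, and these shares describe that list.

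A replicate summit lay within 100 bp of the optimal one for 76.9%, 90.5% and 87.8% of the peaks in replicates 1, 2 and 3, and in all 3 for 1188 peaks (64.4%). For 1157 of these 1188 (97.4%) all 3 summits lay upstream of the same TSS. Among the peaks with such a summit its median distance, which the limit of 100 bp bounds, was 21, 13 and 14 bp. The peaks whose ranks differed most between replicates were 2 neighbouring peaks of CG2747 and 1 of edl, an antagonist of ETS transcription factors. The weaker peak of CG2747 had ranks of 973, 513 and 7486 in replicates 1, 2 and 3, and that of edl 727, 614 and 8798. Replicate 3 gave the weakest rank in each case. In replicates 2 and 3 the same region overlapped both peaks of CG2747, so these are not separate cases.

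Summits were most frequent 50 to 99 bp upstream of the TSS and thinned out with distance. The median distance was 173.5 bp in the optimal list (quartiles 86 and 287 bp). It was 194, 173 and 161 bp in replicates 1, 2 and 3 (176 ± 16.7 bp, SD, n = 3). The bin of 50 to 99 bp held 324 of the 1844 peaks, and 1255 (68.1%) lay within 250 bp. Replicate 1 had its fullest bin at 150 to 199 bp instead, with 268 peaks, and placed 10.02% of its peaks within 50 bp of the TSS, against 11.0% in replicate 2 and 15.5% in replicate 3.

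The limit of 500 bp cut through a continuous range. Just inside it lay the peaks of CG12402 at 500 bp, with a signal of 562, ITP, the ion transport peptide gene, at 499 bp with 671, and CG5973 at 498 bp with 201. Just outside it lay the peaks of CG42566 at 502 bp with a signal of 286, Npc2b, a sterol-binding protein gene, at 503 bp with 402, and CG9981 at 504 bp with 443. Of the 1844 summits, 1153 (62.5%) lay outside all gene bodies, 505 (27.4%) inside their own gene, upstream of one of its inner TSSs, and 186 (10.1%) inside another gene. A TSS of a noncoding gene lay within 500 bp of 129 summits (6.996%).

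**Figure D2:**
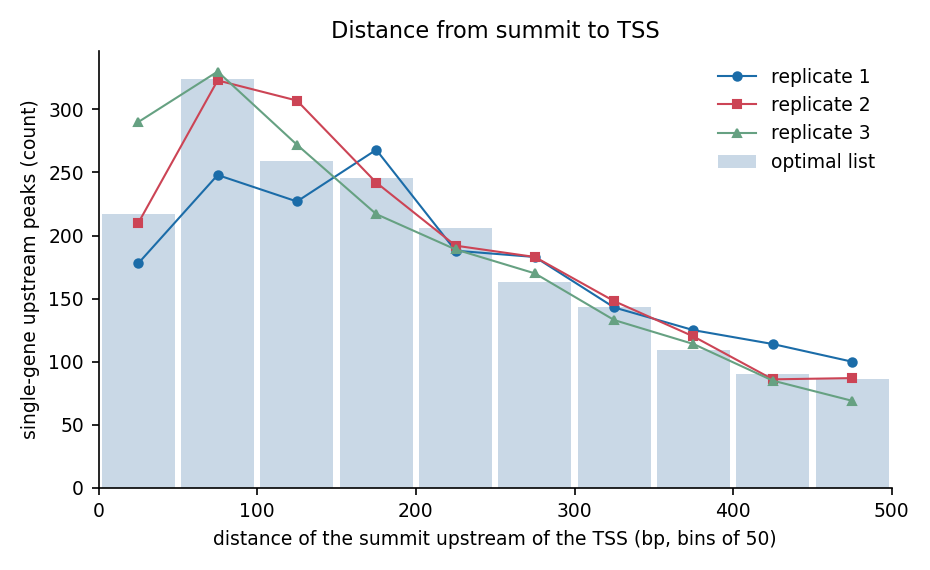
Number of single-gene upstream peaks (vertical) by distance from summit to TSS in bins of 50 bp (horizontal), as bars for the optimal list and lines for the 3 replicates. The optimal list peaks at 50 to 99 bp with 324 peaks, replicate 1 at 150 to 199 bp with 268.

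Upstream single-gene peaks were stronger than the downstream ones and weaker than those at divergent promoters. Strength is given as the percentile of a peak's signal value in its own list, so that the median of each whole list is 50. Upstream peaks had a median percentile of 55.5 ± 0.26, downstream peaks 40.8 ± 3.63, divergent promoter peaks 64.0 ± 1.82 and peaks over 500 bp from a TSS 44.0 ± 1.36 (SD, n = 3 replicates). The difference between upstream and downstream peaks was 15.98, 10.9 and 17.4 percentile points in replicates 1, 2 and 3, with a mean of 14.8 ± 3.37. Against divergent promoter peaks it averaged -8.44 ± 1.68 and against peaks far from a TSS 11.5 ± 1.61 points. Each of these differences had the same sign in 3 of 3 replicates and exceeded their spread. The two-sided exact permutation test over the 3 replicates gave p = 0.25 for each of the 3, the smallest it can give. Among the 1000 strongest optimal peaks, 312 were upstream single-gene peaks.

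**Figure D3:**
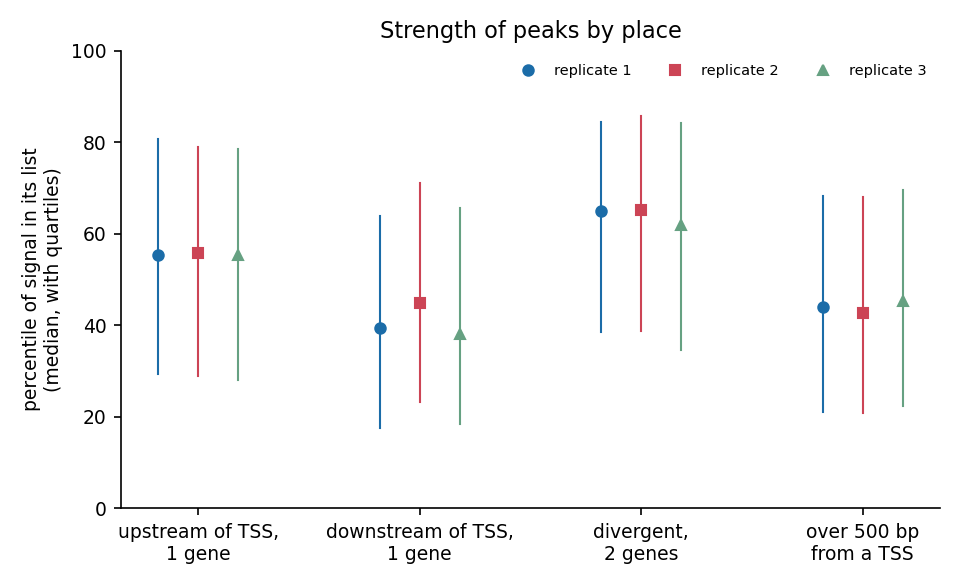
Percentile of the signal value within the list (vertical; symbols are medians, lines span the quartiles) for peaks upstream of the TSS of 1 gene, downstream of it, at divergent promoters and over 500 bp from a TSS, in each replicate. Medians of upstream peaks lie near 55 in all 3 replicates, above those of downstream peaks and below those of divergent promoter peaks.

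Strength, base composition and DRE content differed between peaks close to the TSS and peaks farther out. The 541 peaks with summits less than 100 bp upstream (near peaks) were weaker, less A+T-rich and more often held a DRE than the 1303 peaks at 100 to 500 bp (far peaks). The median percentile of the near peaks was 41.8, 45.3 and 43.2 in replicates 1, 2 and 3, and that of the far peaks 60.1, 60.1 and 61.7. The mean difference, near minus far, was -17.2 ± 2.10 points (SD, n = 3). Of the near peaks, 30 (5.55%) were among the 1000 strongest optimal peaks, and of the far ones 282 (21.6%). Within the far peaks the median percentile in the optimal list was 67.1 at 100 to 199 bp and 53.9 at 400 to 500 bp, so that the bin nearest the TSS, at 43.8, was the weakest of the 5.

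The DRE lay at the centre of 73 of the 1844 upstream peaks (3.96%), against 2.21% of all optimal peaks, where the centre is the summit with 50 bp on either side. Of these 73 peaks, 62 were near peaks. The share was 10.6%, 12.4% and 11.6% of near peaks in replicates 1, 2 and 3, and 1.26%, 1.17% and 0.64% of far peaks. The near and far ranges did not overlap, and the mean difference was 10.5 ± 1.04 percentage points (SD, n = 3, higher in 3 of 3 replicates). In promoters at large the DRE was also most frequent near the TSS. Windows of the same length centred 50 bp upstream of the TSS held it at 7.25% of the genes with such a peak and at 6.30% of all protein-coding genes. Centred 150 bp upstream, the same windows held it at 0.69% and 1.15%, close to the 0.79% of peaks at 100 to 199 bp.

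The A+T share showed the opposite order. Centres of near peaks were 59.1%, 59.4% and 58.0% A+T in replicates 1, 2 and 3, and centres of far peaks 67.3%, 68.2% and 66.7%. The mean difference, near minus far, was -8.58 ± 0.33 percentage points (SD, n = 3). Composition also varied with distance in promoters at large. Windows centred 50 bp upstream were 54.6% A+T at the genes with such a peak and 58.8% at all protein-coding genes. At 250 bp they were 66.4% and 62.6%. Peak centres at 0 to 99 bp, at 58.9% in the optimal list, were richer in A+T than the same window averaged over the genes with such a peak and close to that over all genes. At 200 to 299 bp, with 68.4%, and at 400 to 500 bp, with 67.6% against 62.8% and 59.0% for windows centred 450 bp upstream, peak centres were above both.

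**Figure D4:**
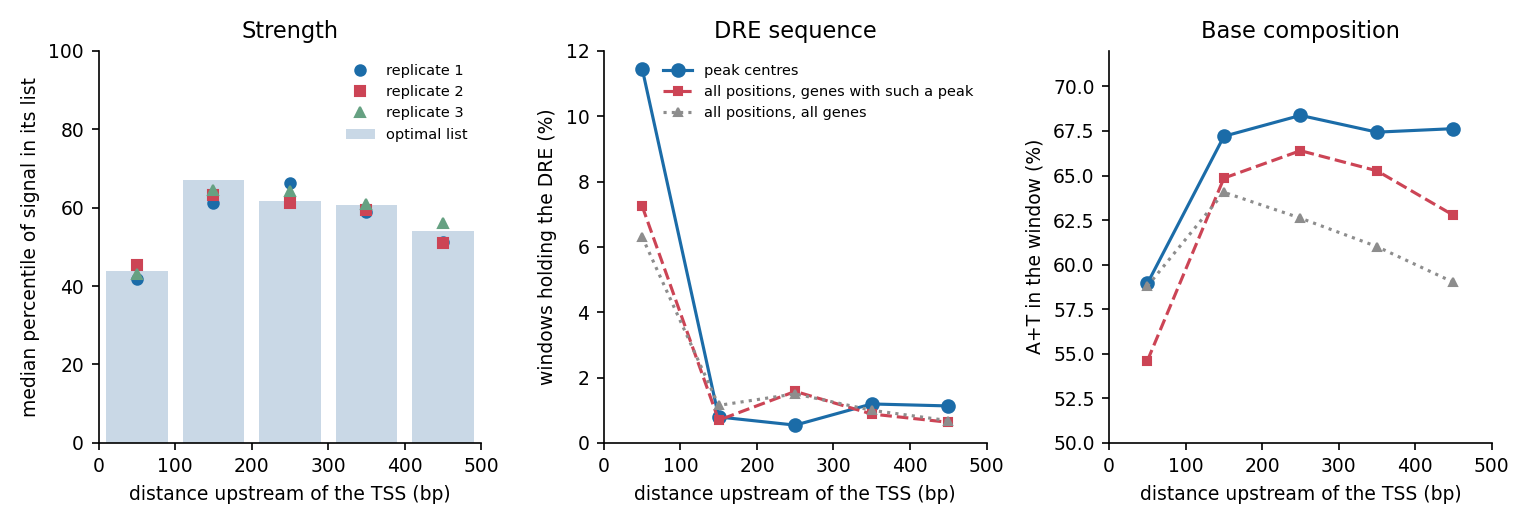
Median percentile of the signal value (left, bars for the optimal list and symbols for the replicates), percent of windows with TATCGATA (middle) and mean A+T percent (right), by distance upstream of the TSS in bins of 100 bp. In the middle and right panels, circles are peak centres of the optimal list, squares the windows at that distance in all genes with such a peak and triangles those in all protein-coding genes. The bin nearest the TSS has the lowest percentile, 43.8, the highest DRE share, 11.5%, and the lowest A+T share, 58.9%.

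Other promoter sequences differed between near and far peaks too. CGATA was present in 44.7% ± 3.20 of near centres and 13.7% ± 0.50 of far ones, and CANCNCT in 42.8% ± 4.16 and 14.8% ± 1.29 (SD, n = 3, both strands searched). A DRE always contains a CGATA. Windows centred 50 bp upstream of the TSS held CGATA at 30.9% of the genes with such a peak and 28.4% of all protein-coding genes, and CANCNCT at 32.3% and 22.7%. Centred 150 bp upstream, they held CGATA at 13.1% and 14.3%, and CANCNCT at 16.5% and 12.5%, so promoters at large showed a split too. GGTCACACT was rarer, in 3.67% ± 0.51 of near and 0.59% ± 0.19 of far centres. Windows centred 50 bp upstream held it at 2.08% and 2.29%, and those centred 150 bp upstream at 0.57% and 0.47%. TATAAA ran the other way, with 11.9% ± 0.90 of near and 23.8% ± 0.95 of far centres, and so did the homeodomain core TAATTA, with 3.94% ± 1.69 and 10.8% ± 1.10. The promoters showed a similar split for TAATTA: windows centred 50 bp upstream held it at 2.84% of the genes with such a peak and 5.62% of all protein-coding genes, and windows centred 150 bp upstream at 9.96% and 10.25%. All of these differences between near and far peaks had the same sign in 3 of 3 replicates, and the two-sided exact permutation p was 0.25 for each, the smallest possible. Windows centred 150 bp upstream held TATAAA at 21.7% of the genes with such a peak and 20.6% of all protein-coding genes, not far below its share in far peaks. Centred 50 bp upstream, they held TATAAA at 12.4% of the genes with such a peak, close to its share in near peaks, and at 20.2% of all protein-coding genes.

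Measured against the DNA 200 to 250 bp away on both sides, the DRE had the largest centre-to-flank ratio of the 20 motifs searched in the optimal list, with 73 centres and 16 flanks. It was present in 3.49%, 4.31% and 4.28% of centres in replicates 1, 2 and 3, and in 1.41%, 0.89% and 0.91% of flanks, which together have about the same length. In replicate 1 the ratio was larger for Motif 1, present in 1.35% of centres and 0.34% of flanks. The DRE excess averaged 2.96 ± 0.76 percentage points (SD, n = 3), but 1.36 points in the 4000 strongest regions of each replicate. The DRE was not sharply placed at the summit. Of 241 DRE matches within 250 bp of an optimal summit, 83 (34.4%) lay within 50 bp of it. The median absolute distance of these matches from the summit was 75 bp. Their median position from the TSS was -53 bp, where negative is upstream. The fullest 50 bp bin, with 51 matches, was centred 75 bp from the summit toward the gene. The GAGA factor site GAGAGAG (1.80% ± 0.50 of centres, 4.32% ± 0.41 of flanks) and the repeat CACACACA (0.80% ± 0.25 and 2.52% ± 0.16) were rarer at the centre (SD, n = 3). The exact permutation p was again 0.25 for each. The words of 7 letters with the largest ratios among those in at least 5% of optimal centres were ACTATCG (115 centres, 20 flanks), AGTGTTG (93 and 22), ATCGATA (158 and 39), CTATCGA (122 and 32) and CTTTTAA (118 and 44). The words that contain TATCG or ATCGA share those letters with the DRE. AGTGTTG, read on the other strand, matches CANCNCT, the pattern searched here for Motif 7, which does not make it a full Motif 7 site. Of the 174 words in at least 5% of centres, 18 had a ratio above 2. Upstream single-gene peaks held the DRE in 4.03% ± 0.47 of centres, downstream ones in 3.41% ± 0.89 and divergent promoter peaks in 5.31% ± 0.93 (SD, n = 3). The difference, upstream minus downstream, of 0.62 points was within the spread between replicates (higher in 2 of 3 replicates, two-sided exact permutation p = 0.5).

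Peaks with a DRE were weaker than those without. The 73 peaks with it at the centre had a median percentile of 32.9 and a median distance of 56 bp, and 3 of them were among the 1000 strongest. The 1771 without it had a median percentile of 56.9 and a median distance of 180 bp, with 309 among the 1000 strongest. Of the 73, 62 were near peaks, and near peaks as a whole had a median percentile of 43.8 in the optimal list. Peaks with and without the DRE were not compared at like distance. In 4 sets of 461 peaks each, from strongest to weakest, the share with the DRE was 1.08%, 3.47%, 3.905% and 7.38%, the A+T share of the centre 68.9%, 65.4%, 64.1% and 61.9%, and the median distance 195, 173, 155 and 137 bp. Every replicate overlapped 99.8%, 96.7%, 78.3% and 32.3% of these sets. The weakest set had the highest DRE share and the lowest overlap. The replicate lists were cut to their 7827 strongest regions, so weak peaks more easily fall past the cut. With full lists, a replicate overlapped 99.4% of all upstream single-gene peaks on average. Whether the weak peaks with a DRE reflect the same kind of binding as the strong ones was not tested.

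Base composition was uneven around these summits. Centres were 65.0% ± 1.02 A+T, the flank upstream 62.8% ± 0.33 and the flank toward the gene 54.0% ± 0.38 (SD, n = 3). Centres exceeded both flanks together by 6.52 ± 0.90 points, those of downstream peaks by 3.67 ± 1.89, those of divergent promoter peaks by 8.52 ± 0.64 and those of peaks far from a TSS by 10.8 ± 1.28. The highest A+T share of upstream peaks, 67.9%, lay about 70 bp upstream of the summit in the optimal list, while peaks far from a TSS had theirs, 68.6%, at the summit.

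**Figure D5:**
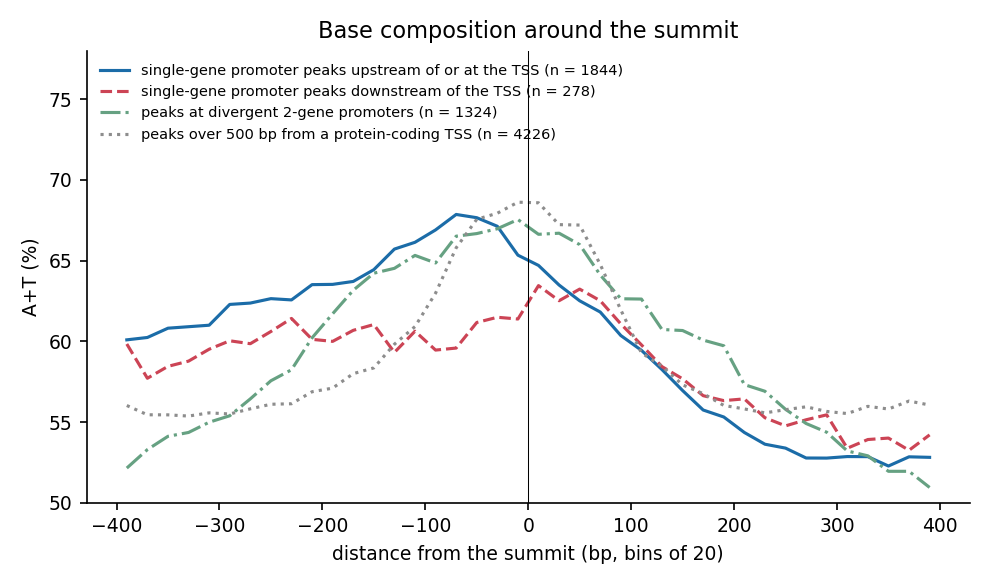
Mean A+T percent (vertical) in bins of 20 bp around the optimal summits (horizontal) for the 4 kinds of peak. Single-gene peaks are turned so that positive distances run in the direction of transcription, while the other peaks are drawn on the plus strand of the genome. Upstream single-gene peaks reach 67.9% about 70 bp before the summit and fall off toward the gene.

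Of the 1587 genes, 1370 had 1 single-gene upstream peak, 189 had 2 and 28 had 3 or more. dnc, the cAMP phosphodiesterase gene dunce, had 6 peaks at 4 TSSs, and SNF4Agamma, a subunit gene of AMP-activated protein kinase, had 6 at 5 TSSs. Rtnl1 and Svil, which encodes an actin-binding protein of the supervillin family, had 5 at 5 TSSs each. Genes with such a peak were long, with a median length of 5010 bp against 2166 bp for all protein-coding genes, and 47.8% had a single annotated TSS against 73.5%. A gene with more TSSs has more chances to meet the rule, and the rule leaves out peaks near the TSS of another gene. Several peaks can lie in overlapping regions, and 1 summit per merged region left 1667 peaks. For 56.0% of the 1587 genes the nearest gene upstream lay on the same strand, against 36.7% of all. Peaks with the TSS of an opposite-strand neighbour within 500 bp are left out by the rule, which favours same-strand neighbours. For genes with a downstream single-gene peak, chosen with the same limit, the share was 48.8%.

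The share of genes with a TATA box at the TSS was lower than among protein-coding genes at large, and the share with an initiator was higher; neither difference was tested. For the 1587 genes, the TSS nearest the summit was used. A TATA box (TATAAA) within 10 bp of its usual place was present at 55 of these 1587 TSSs (3.47%, 95% exact interval 2.62 to 4.49%). Among all 13945 protein-coding genes the share was 7.87%. An initiator (TCAGT) was present at 262 (16.5%, 14.7 to 18.4%), against 13.3% of all. For TSSs of genes with a downstream peak the shares were 1.55% and 10.9% of 258. The initiator difference depended on the tolerance. Within 20 bp of its usual place an initiator was present at 19.2% of the 1587 TSSs (17.3 to 21.2%) and 18.0% of all, and within 5 bp at 12.9% and 10.1%. Over 250 bp before to 50 bp after the TSS, 160 of the 1587 promoters (10.1%) had a DRE, against 9.36% of all protein-coding promoters, a share near the background. Intervals cover counting error only.

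Of the 16 gene groups, the cytosolic ribosomal proteins had the largest share with a single-gene upstream peak, 32 of 88 genes (36.4%, against 11.4% of all protein-coding genes). Of these 32 peaks, 25 lay within 100 bp of the TSS and the median distance was 55 bp. Their median percentile was 66.5, with only the strongest peak of each gene counted and peaks beyond 100 bp included. Near peaks as a whole had 43.8, with every peak counted, so these medians are not of like sets. Of the 32, 1 was among the 1000 strongest. RpL23A ranked 744, 467 and 471 in replicates 1, 2 and 3, RpL24 2069, 1495 and 1478, and RpS5a 1874, 1279 and 2066. RpL10Ab, RpL27, RpL36A, RpL6, RpS10b and RpS24 held the DRE at the peak centre.

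Other groups of the protein synthesis and turnover machinery lay on both sides of the background. Translation initiation factors had 9 of 44 genes (20.5%), led by eIF6, eIF3c (ranks 627, 447 and 538 in replicates 1, 2 and 3) and eIF5B (1315, 948 and 1215). Mitochondrial ribosomal proteins had 5 of 73 (6.85%), led by mRpL41, mRpL4 and mRpL10, and aminoacyl-tRNA synthetases 1 of 18, AlaRS. The proteasome had 4 of 48 (8.33%), led by Rpn11, Rpn12 and Prosalpha5, the vacuolar ATPase 6 of 33 (18.2%), led by Vha16-1, Vha68-2 and VhaM9.7-c, and complex I of the respiratory chain 3 of 40, ND-B17, ND-B22 and ND-20. The nuclear pore had 2 of 21, Nup107 and Nup358, and the Mediator 1 of 25, MED4 (2404, 1148 and 959).

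Regulators of chromatin and development had both near and more distant summits. Homeobox genes had 5 of 62 (8.06%, against 11.4% of all protein-coding genes), none of them within 100 bp of the TSS. Their median percentile was 74.2 and their median distance 264 bp. The heart gene tin ranked 972, 960 and 518 in replicates 1, 2 and 3, the anterior determinant bcd 2714, 1574 and 1061, and the eye gene so 1510, 1743 and 3057. Polycomb and Trithorax genes had 5 of 25 (20%), led by ph-p, then esc (12136, 5090 and 3737) and pho (6613, 5218 and 7719). Their median distance was 339 bp, and 2 of the 5 lay within 100 bp, with esc at 39 bp. Architectural proteins had 3 of 16 (18.75%), BEAF-32 (4264, 1728 and 1600), east and mod(mdg4). Of these 3, 2 lay within 100 bp, and the median distance was 41 bp. In the optimal list, tin and ph-p were the only members of these 3 groups among the 1000 strongest peaks. Each of these shares rests on 5 genes or fewer, and no difference from the background was tested.

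Genes of detoxification and body surface were at or below the background. Cytochrome P450 genes had 6 of 83 (7.23%), led by Cyp310a1, Cyp6v1 and Cyp317a1, and glutathione S-transferases 2 of 35, GstT4 and GstD1. All 8 of these peaks lay 100 bp or more from the TSS, with median distances of 363 and 395 bp for the 2 groups. No gene of 70 cuticle proteins and of 179 chemoreceptors had a single-gene upstream peak. These are counts of genes that meet the rule; a peak within 500 bp of the TSSs of 2 genes is not counted here, however strong.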

How the data were processed

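The optimal list and the list of each replicate on build dm6 were used; lists on dm3 and pooled lists with background were not used here. The signal value is a score deposited by the authors, with no stated scale. The authors also deposited the −log10 of a q value, which is 4.23 throughout the optimal list and was not used. Chromatin was sonicated to 200 to 800 bp, per the labels. Neither an aligner nor a peak caller is named in the labels, and depth is unknown. The deposited replicate lists held 29373, 30000 and 30000 regions. They reach into weak regions and were therefore shortened to the 7827 strongest.

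Summits were placed with the deposited offsets and compared with TSSs of Ensembl release 115; sequence came from the Release 6 assembly, which has the same arms. Motifs were counted by presence on both strands. Differences between kinds of peak were computed in each replicate and tested by sign flips (exact, two-sided, all 8 assignments); no test was made over peaks. Python 3.11.15, numpy 2.4.6, pandas 2.3.3 and scipy 1.17.1 were used, and the procedures were tested on simulated data.

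The peaks, motifs and gene lists were chosen with earlier results of these data known, and the division at 100 bp was chosen after the distance bins were seen. Named genes are the 25 with the strongest peak, the 3 strongest of each of 16 lists, the 3 just inside and outside 500 bp, and the 3 whose replicate ranks differ most by ratio. Alternatives were windows of 250 and 1000 bp, merged regions, other neighbours, motif windows, flanks, overlaps and list lengths, and leaving out each replicate.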

Additional observations from a re-analysis of the deposited data

How the results depend on the processing

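Of 80 alternatives to 16 results, 68 kept their direction and, where no test applied, stayed within the replicate spread or 1.5 times the count; 12 moved a value and 0 reversed one. The number of peaks was 312 among the 1000 strongest optimal peaks, and 1044 on average in replicate lists of 4000 regions, as shorter lists hold fewer. The median distance followed the window, at 108 bp for a window of 250 bp and 224.5 bp for 1000 bp, and was 202 bp among the 1000 strongest peaks. The DRE excess at the centre of optimal peaks was 3.09 percentage points, but 0.32 points among the 1000 strongest. Over replicates it was 2.96 points, with 1.36 in lists of 4000 regions, 1.62 within 25 bp and 5.49 within 100 bp of the summit. The strength difference from downstream peaks was 9.78 points with a window of 1000 bp, and that from divergent promoter peaks -14.9 with 250 bp. The share of peaks overlapped by a replicate list was 76.0% with a reciprocal overlap of 50%, 59.5% with 4000 regions and 99.4% with full lists. TATA boxes within 5 bp of their place were present at 2.52% of TSSs, and initiators at 12.9% within 5 bp and 19.2% within 20 bp. Among all protein-coding genes these shares were 5.99%, 10.1% and 18.0%. With limits at 50 and 150 bp, chosen after seeing the data, near peaks exceeded far ones in DRE share by 10.9 and 7.51 points, and the A+T difference, near minus far, was -10.0 and -6.46 points. Leaving out each replicate changed no direction: the DRE excess ranged from 2.73 to 3.39 points and the near minus far A+T difference from -8.76 to -8.45 points. Unknown depth, a single group and a control not analysed here limit all values.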
